A study of Mus musculus with 15 samples.

Results

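Contacts between the promoter of mouse Slc25a37, the captured viewpoint, and its own gene body and the stretch past its end were examined in 15 NG Capture-C libraries. NG Capture-C joins DNA that lies close together in the nucleus, enriches the joined fragments of a chosen promoter with oligonucleotides and counts the fragments found beside it. The members are DpnII fragments of chr14 in mm9, from chr14:69759957 to 69901406, whose midpoints lie on the gene side of the viewpoint and more than 2 kb from the midpoint of the gap the tables leave there (chr14:69902161-69904393). The rule gave 337 fragments of 89456 listed on chr14 and 359420 in all. Of these, 95 lie in the gene body (chr14:69859913-69901406) and 242 on the downstream side (chr14:69759957-69859912). The boundary was set at the approximate gene end, 43.3 kb from the viewpoint midpoint. No mm9 gene model was used, so exons and introns are not separated.

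Slc25a37 encodes mitoferrin-1, the inner-membrane carrier that brings iron into the mitochondria of developing red cells, where it is built into heme. It is strongly expressed in erythroid precursors and lies on another chromosome than the α-globin genes. Contact between a promoter and neighbouring DNA falls with distance in any cell, and active genes commonly show extra contact with their enhancers and along the transcribed body. The mouse α-globin super-enhancer has the elements R1, R2, R3, Rm and R4, and its deletions here do not target the Slc25a37 locus. The gene therefore shows how an untargeted erythroid locus reads in the same libraries. Its sequence in these lines was not checked.

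The erythroid groups were fetal liver cultures of strain F1 C57Bl6/CBA, from E12.5 embryos, expanded for 5 to 7 days, freed of Ter119-positive cells and differentiated for 18 h. Controls without a deletion had 3 libraries, as had the paired deletion of R1 with R2 (R1R2_KO) and that of R2 with R3 (R2R3_KO). The single deletions R1_KO, R2_KO, R3_KO, Rm_KO and R4_KO had 1 library each, as had E14 embryonic stem (ES) cells of strain 129/Ola. Cell type and strain cannot be told apart in the ES comparison. Slc25a38 is written in the ES label as the gene analysed, and Slc25A37 in the rest. No marker of cell identity is measured by this assay, so the labelled cell types could not be checked that way.

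Libraries held 11895 to 31239 chr14 reads in the 9 replicated libraries and 74149 to 158960 in the single knockouts and ES. Contact levels are given as reads per 100000 chr14 reads more than 2 kb from the viewpoint midpoint. Counts at the deleted α-globin elements bore out the paired deletions. They were taken from the α-globin viewpoint, as shares of reads on its own chromosome, in approximate windows by fragment midpoint. R1 held 23.4 to 28.4% of the control level in R1R2_KO and 72.8 to 82.8% in R2R3_KO, and R3 held 61.5 to 71.6% and 6.15 to 10.9%. R2, which both pairs lack, held 9.83 to 13.2% and 9.95 to 10.7%. The single deletions were not checked in this way. The share of chr14 reads lying within 500 kb of the viewpoint was 63.0 to 69.2% in control, 60.8 to 64.8% in R1R2_KO, 54.2 to 56.3% in R2R3_KO, 59.5 to 69.87% in the single knockouts and 58.1% in ES. R2R3_KO libraries therefore had fewer of their reads near the gene, and its part in the differences below was not tested beyond the other scales given beside them. Replicates are labelled as biological, and p-values measure only the spread between these libraries. In the column headers R1R2_KO carries sample numbers 1 to 3 and control 4 to 6, and R2R3_KO carries 1 to 3 again. The headers name no run. If R2R3_KO was handled in a series of its own, that and its genotype cannot be told apart.

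Contact in control cells was highest beside the promoter and fell through the gene. It then dropped steeply, beginning in the bin that spans the gene end and continuing past it. The 5 kb bin at 5 to 10 kb had 5414 ± 659 reads per 100000 (SD, n = 3), the bin at 0 to 5 kb had 5218 ± 172 (its first 2 kb are left out), and the bin at 10 to 15 kb had 2694 ± 149. These were the 3 highest gene body bins. Per covered kb, which allows for uneven fragment coverage, the control level was 1728 at 0 to 5 kb, 261 at 20 to 25 kb, 201 at 35 to 40 kb and 106 at 40 to 45 kb, the bin that spans the gene end. From 20 to 40 kb it was nearly level, between 201 and 261.

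Past the end, the highest control bins were 45 to 50 kb, with 445 ± 31.9 reads per 100000, 50 to 55 kb, with 293 ± 11.3, and 100 to 105 kb, with 241 ± 71.9. The level per kb was 84.2 at 45 to 50 kb and 20.04 at 55 to 60 kb. Beyond 55 kb the bins lay between 3.19 per kb, at 130 to 135 kb, and 45.7, at 100 to 105 kb. A drop at these distances was also seen on the other side. There the control level was 475 per kb at 40 to 50 kb and 132 at 50 to 60 kb, a 3.61-fold step, against 95.3 and 40.8, a 2.34-fold step, on the gene side.

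**Figure D1:**
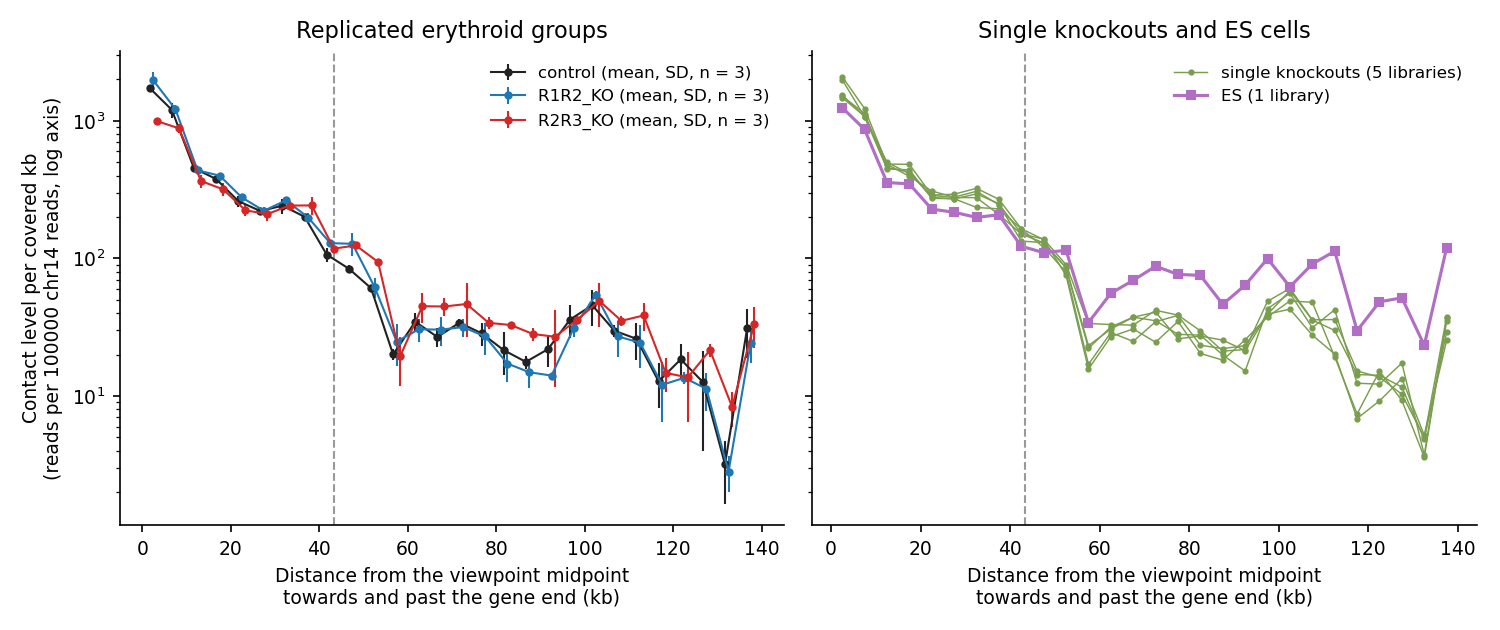
Contact level per covered kb (log axis) in 5 kb bins against distance from the viewpoint midpoint; the dashed line is the approximate gene end. Left, means with SD of the replicated groups (n = 3 each); right, the 5 single knockout libraries and the ES library. Levels fall through the gene, and ES stays above the single knockouts beyond 50 kb.

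Summed over the gene body, the 3 control libraries had 19552, 20398 and 19907 reads per 100000, and over the downstream side 3237, 3233 and 2840. The gene body therefore held 6.45 ± 0.501 (SD, n = 3) times as many control reads as the longer downstream side. Against the same distances on the other side of the viewpoint, where contact in control cells is denser, the gene side held 0.577 ± 0.0377 of the reads. That imbalance came from distances beyond 20 kb: the ratio was 0.918 ± 0.0459 at 2 to 20 kb, 0.277 ± 0.0466 at 20 to 43 kb and 0.547 ± 0.0150 from 43 kb to the window end.

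In ES cells the promoter's contact was spread more evenly, lower over the gene and higher past its end. The rise was not particular to this side. From about 57 kb upstream, the next 100 kb had 4958 reads per 100000 in ES against a single knockout mean of 2371. Farther out, to 500 kb, ES had 5740 against 839 on the gene side and 6857 against 2737 on the promoter side. The ES library had 7483 reads per 100000 on the downstream side (Wilson 95% interval 7355 to 7613). The single knockouts had 3828 (R1_KO), 3626 (R2_KO), 3417 (R3_KO), 4112 (Rm_KO) and 3818 (R4_KO). ES was thus 1.99 times their mean, and its level lay above all 14 erythroid libraries, which ran from 2840 to 4112. Intervals cover counting error within 1 library only and take each read as independent. PCR reads carry no molecular identifiers, so that could not be checked. With 1 ES library there is no test.

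Over the gene body ES had 15968 reads per 100000 (15788 to 16148), against 19965, 23190, 21018, 20193 and 20059 in R1_KO, R2_KO, R3_KO, Rm_KO and R4_KO. ES was 0.764 of their mean on this scale, but 1.01 of it when all reads of the table were the scale. In ES 81.4% of the table's reads were on chr14, against 56.6 to 68.6% in the single knockouts. ES did not lie below every erythroid library, since R2R3_KO had 15381 to 15687. The ratio of gene body to downstream reads needs no scale. It was 2.13 in ES, 4.91 to 6.39 in the single knockouts and 3.79 to 7.01 over all 14 erythroid libraries.

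On the chr14 scale the change of sign lay just past the gene end. It was not particular to the gene side, since ES stopped being lower at a like distance on the opposite side. There the level per kb was 201 in ES and 391 in the single knockouts at 40 to 50 kb. At 50 to 60 kb it was 110 in ES and 105 ± 6.90 (SD, n = 5 libraries of different genotypes) in the single knockouts. All 9 gene body bins and the bin at 45 to 50 kb were lower in ES than in each of the 5 single knockouts, and the other 18 downstream bins were higher than in each. With all reads of the table as the scale, 0 gene body bins were below all 5 single knockouts and 3 were below their mean, while 18 downstream bins were still above all 5. On the chr14 scale ES was more than 2-fold above the single knockout mean in 14 of 19 downstream bins and in 0 of 9 gene body bins. Over all 675 chr14 bins with 90 or more reads, 35.4% were past that fold in this direction and 35.7% in the other, so the share of 14 among 28 member bins is read against a table in which most bins differ. No member bin was more than 2-fold lower. The highest ES ratios were at 130 to 135 kb (114 reads per 100000 against a mean of 21.8, 5.23-fold), 125 to 130 kb (263 against 63.0, 4.18-fold) and 110 to 115 kb (608 against 159, 3.82-fold). The lowest were at 30 to 35 kb (945 against 1367, 0.691, or 0.661 without R3_KO), 0 to 5 kb (3766 against 5199, 0.724) and 10 to 15 kb (2123 against 2827, 0.751). Split into 2 equal stretches, the downstream side was 2.81 times the single knockout mean in the far stretch and 1.54 times in the near one. The bin at 100 to 105 kb, among the 3 highest downstream in control, was an exception among far bins, with 328 in ES against 226 to 319.

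**Figure D2:**
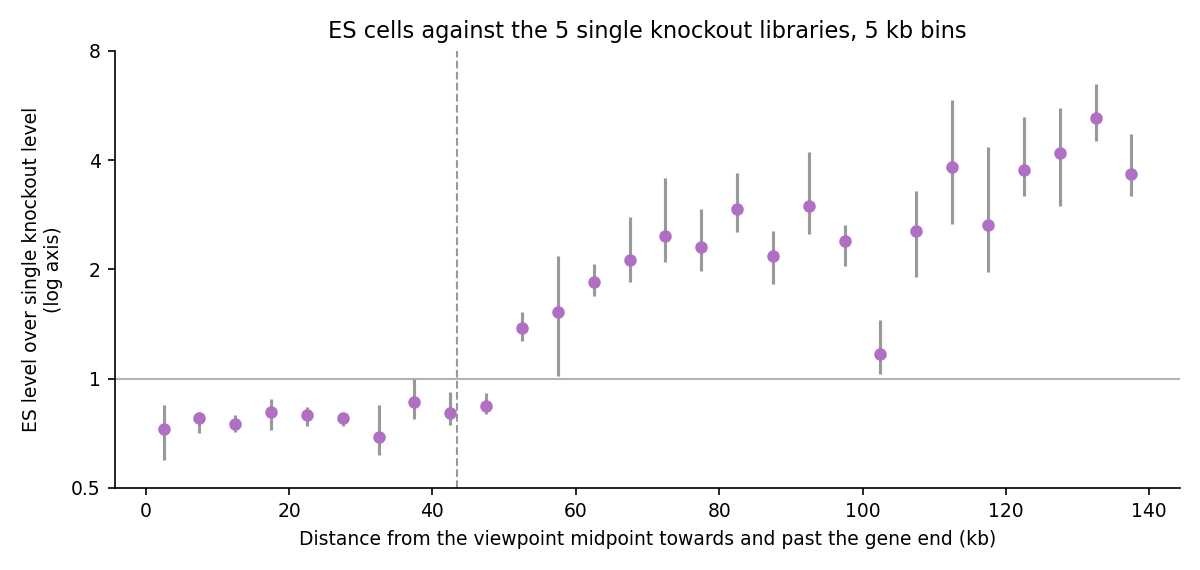
ES level divided by the mean of the 5 single knockout libraries (points, log axis) in 5 kb bins against distance from the viewpoint midpoint; grey lines span the ratios to each single library and the dashed line is the approximate gene end. On the chr14 scale plotted, points lie below 1 through the gene and above 1 from 50 kb on, up to 5.23; with all reads of the table as the scale, 3 of the 9 gene body bins lay below 1.

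On the gene side against the opposite side, ES was nearly balanced. The ratio was 1.08 in ES, 0.676 to 0.751 in the single knockouts and 0.550 to 0.702 in the replicated libraries. At 20 to 43 kb, the far part of the gene, it was 0.880 in ES against 0.415 ± 0.0325 (SD, n = 5 libraries of different genotypes) in the single knockouts. The difference at these distances was mostly on the opposite side: at 30 to 40 kb the level per kb was 234 in ES and 771 in the single knockouts there, and 203 and 264 in the gene.

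Deleting R1 and R2 left the summed gene body and downstream levels without a change past the test. R1R2_KO libraries had 19722, 21548 and 21700 reads per 100000 in the gene body and 3172, 3370 and 3160 downstream, and both sets overlap control. In edgeR's quasi-likelihood test, adjusted by Benjamini-Hochberg over 6 regions and 3 contrasts, the log2 change was 0.07 (SE 0.06, adjusted p = 0.211) and 0.05 (SE 0.06, adjusted p = 0.397). The gene body value was 0.15 (adjusted p = 9.5e-05) with reads within 500 kb as the scale and 0.12 (adjusted p = 0.0059) without R1R2_KO library 1.

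Deleting R2 and R3 went with a lower gene body and a higher downstream side. R2R3_KO libraries had 15534, 15381 and 15687 reads per 100000 in the gene body, all below every control and R1R2_KO library. The log2 change was -0.36 (SE 0.06, adjusted p = 1.04e-06) against control and -0.43 (SE 0.06, adjusted p = 9.89e-08) against R1R2_KO. On the downstream side they had 4103, 3960 and 4086, all above every control and R1R2_KO library, a change of 0.38 (SE 0.06, adjusted p = 1.04e-06) and 0.33 (SE 0.06, adjusted p = 8.67e-06). Exact permutation tests of the levels gave p = 0.1 in each case, the smallest that 3 against 3 allows.

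The downstream rise depends on the scale. With chr14 reads beyond 500 kb as the scale it was -0.04 (adjusted p = 0.65) against control, while the gene body change was -0.79; with reads within 500 kb they were 0.64 and -0.10 (adjusted p = 0.0102). The ratio of gene body to downstream reads, free of the scale, was 3.79, 3.88 and 3.84 in R2R3_KO, 6.04, 6.31 and 7.01 in control and 6.22, 6.39 and 6.87 in R1R2_KO. R2R3_KO lay below the other groups with no overlap (log2 difference -0.75 from control, exact two-sided p = 0.1, the smallest possible), and R1R2_KO overlapped control (0.01, exact p = 0.9).

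**Figure D3:**
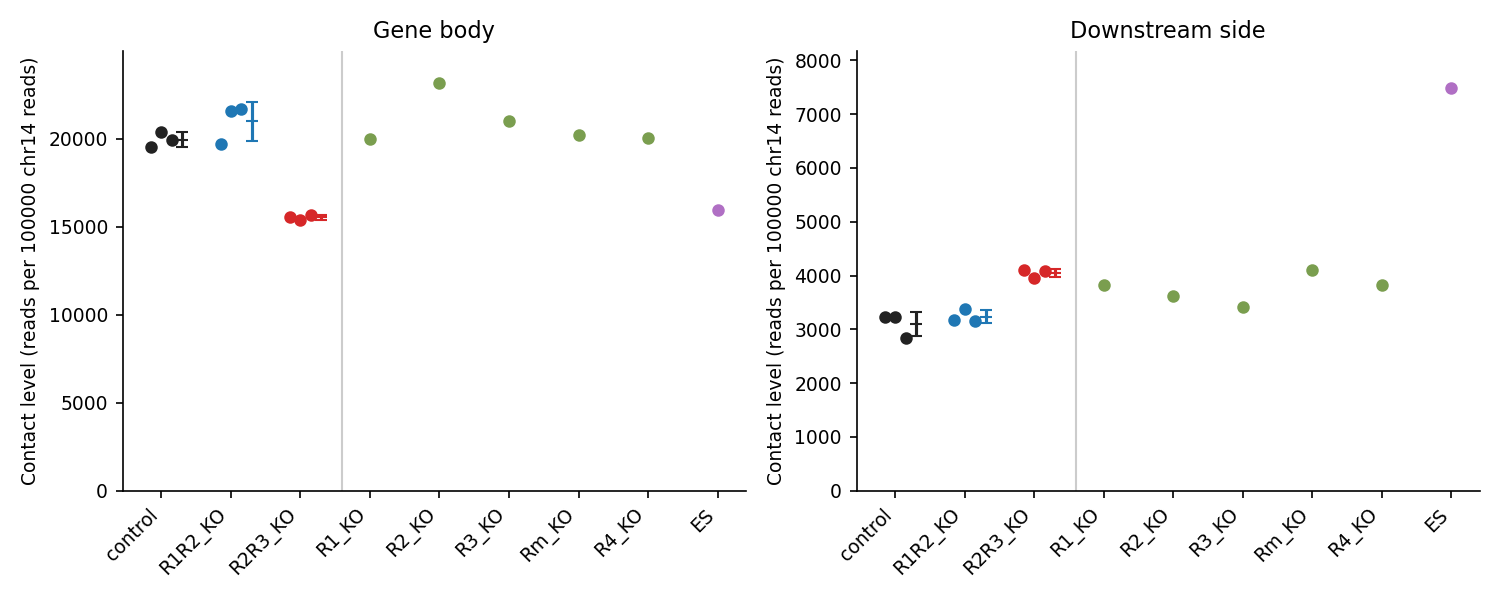
Gene body (left) and downstream (right) contact level in each of the 15 libraries; points are libraries, bars beside the replicated groups are the mean and SD (n = 3), and the grey line separates the 2 tables. R2R3_KO and ES are the lowest in the gene body, and ES is the highest downstream.

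The region on the promoter side changed as well, so the gene body change was not particular to the gene. The downstream rise on the chr14 scale was not particular to its stretch either. Past that stretch, out to 500 kb, R2R3_KO was 0.52 above control (SE 0.13, adjusted p = 0.00087). The outermost promoter side, also to 500 kb, was 0.34 higher (SE 0.06, adjusted p = 3.2e-05). Both come from edgeR with the gene body and downstream side split. With reads beyond 500 kb as the scale they were 0.097 (adjusted p = 0.68) and -0.073 (adjusted p = 0.51). From the viewpoint to about 57 kb upstream, R2R3_KO was -0.42 (SE 0.06, adjusted p = 2.08e-07) against control, and the next 100 kb were 0.34 higher (SE 0.07, adjusted p = 1.58e-05), but -0.070 (adjusted p = 0.60) with reads beyond 500 kb as the scale. The gene side to opposite side ratio was 0.625, 0.634 and 0.618 in R2R3_KO and 0.620, 0.560 and 0.550 in control, which overlap (exact p = 0.2). In R1R2_KO it was 0.672, 0.702 and 0.685, above every control (log2 difference 0.25, exact p = 0.1, the smallest possible). There the upstream change was -0.19 (adjusted p = 0.00318), which did not pass with all reads of the table (-0.17, adjusted p = 0.17) or reads beyond 500 kb (-0.34, adjusted p = 0.067) as the scale.

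Within the gene, the R2R3_KO difference from control was graded with distance. The gene body was split into 3 equal stretches. In the one nearest the promoter the log2 change was -0.54 (SE 0.06, adjusted p = 6.74e-08), in the middle one -0.19 (SE 0.05, adjusted p = 0.0025) and in the one at the gene end 0.12 (SE 0.06, adjusted p = 0.0635). The near stretch of the downstream side was 0.46 higher (SE 0.06, adjusted p = 3.33e-07) and the far stretch 0.23 (SE 0.11, adjusted p = 0.0561). The order along the gene holds under any scale, because a scale shifts all parts alike; the middle stretch turned to 0.07 with reads within 500 kb as the scale, and the end stretch to -0.29 (adjusted p = 0.00135) with reads beyond it. On that last scale the near stretch downstream was 0.046 (adjusted p = 0.66) and the far one turned to -0.18 (adjusted p = 0.32). R1R2_KO passed the test among these 5 stretches in the near one downstream, where the change was 0.15 (SE 0.06, adjusted p = 0.0242). With reads beyond 500 kb as the scale that was 0.011 (adjusted p = 0.90). The stretch nearest the promoter passed with reads within 500 kb (0.15, adjusted p = 0.00324), and the one at the gene end with all reads of the table (0.13, adjusted p = 0.0322).

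Of the 28 member bins, 27 had the 90 reads needed for testing. Against control, R2R3_KO called 8 of them, 4 higher and 4 lower, where 23.2% of all 95 tested chr14 bins were called (10.5% higher, 12.6% lower), so the members' share is near that of all bins. The split moved with the scale: 10 higher and 2 lower with reads within 500 kb, 0 and 7 with reads beyond it, and 1 and 5 by DESeq2. Without R2R3_KO library 2 the call count was 5. The median log2 change over the 27 bins was 0.23, against 0.19 over all 95.

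The 4 lower bins were the 4 nearest the promoter. At 0 to 5 kb controls had 5206, 5395 and 5052 reads per 100000 and R2R3_KO had 3065, 3054 and 2900, a log2 change of -0.79 (SE 0.09, adjusted p = 1.16e-08). At 5 to 10 kb the values were 4685, 5969 and 5588 against 3702, 3968 and 4262, a change of -0.44 (SE 0.09, adjusted p = 0.000264). At 10 to 15 kb they were 2665, 2562 and 2856 against 2366, 1929 and 2228, a change of -0.31 (SE 0.09, adjusted p = 0.00792). In all of these the groups do not overlap, and in the first 2 bins the direction held under all 4 scales (-0.53 to -1.22 and -0.17 to -0.88). The bin at 10 to 15 kb ran from -0.05 to -0.73, and the bin at 15 to 20 kb, also lower here, came to 0.01 with reads within 500 kb.

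Among the called bins, the 3 highest changes were past the gene end. At 65 to 70 kb controls had 121, 154 and 117 and R2R3_KO had 256, 205 and 193 (log2 change 0.75, SE 0.23, adjusted p = 0.0153). At 50 to 55 kb controls had 297, 280 and 301 and R2R3_KO had 443, 446 and 471 (0.63, SE 0.14, adjusted p = 0.000517). At 45 to 50 kb, just past the gene end, controls had 459, 468 and 409 and R2R3_KO had 616, 665 and 689 (0.55, SE 0.12, adjusted p = 0.000517). All 3 stayed above 0 under every scale, the lowest values being 0.30, 0.21 and 0.14 with reads beyond 500 kb.

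The bin at 45 to 50 kb was also the 1 bin called in R1R2_KO against control among the 95 tested (1.05% higher, 0% lower). R1R2_KO libraries had 602, 823 and 600 reads per 100000 there, a log2 change of 0.56 (SE 0.11, adjusted p = 0.000679), and DESeq2 called 0 bins in this contrast (1 member bin had an unadjusted p under 0.05). The single knockouts had 637 to 731 in this bin, in the other table, and ES had 583. The 3 control libraries were therefore the lowest of all 15 there, and both deletion contrasts share those controls. Between R2R3_KO and R1R2_KO the bin did not pass the test (-0.01, SE 0.12).

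R2R3_KO against R1R2_KO called 9 member bins, 5 lower and 4 higher, where 21.1% of all tested bins were called (11.6% lower, 9.47% higher). This split moved with the scale too: 2 lower and 9 higher with reads within 500 kb, 8 and 0 with reads beyond it, and 5 and 1 by DESeq2. Without R1R2_KO library 1, and likewise without library 2, it called 5. The levels compared are those of the deletion libraries only, but the controls enter the fit that sets the spread. Without control library 3 this contrast called 12 member bins, and without control library 1 it called 8. R2R3_KO and R1R2_KO carry the same sample numbers in the headers and differ in their share of reads within 500 kb. A separate series and the genotype therefore cannot be told apart here either. Among the called bins, the lowest changes were at 0 to 5 kb (-0.98, SE 0.09, adjusted p = 2.73e-11), 5 to 10 kb (-0.46, SE 0.09, adjusted p = 0.000482) and 15 to 20 kb (-0.33, SE 0.09, adjusted p = 0.00619). The highest called were at 80 to 85 kb (0.93, SE 0.29, adjusted p = 0.0184), 85 to 90 kb (0.92, SE 0.30, adjusted p = 0.0222) and 50 to 55 kb (0.61, SE 0.14, adjusted p = 0.00214). At 80 to 85 kb R1R2_KO had 77, 71 and 113 reads per 100000 and R2R3_KO had 166, 161 and 168. The controls there had 138, 121 and 66.

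**Figure D4:**
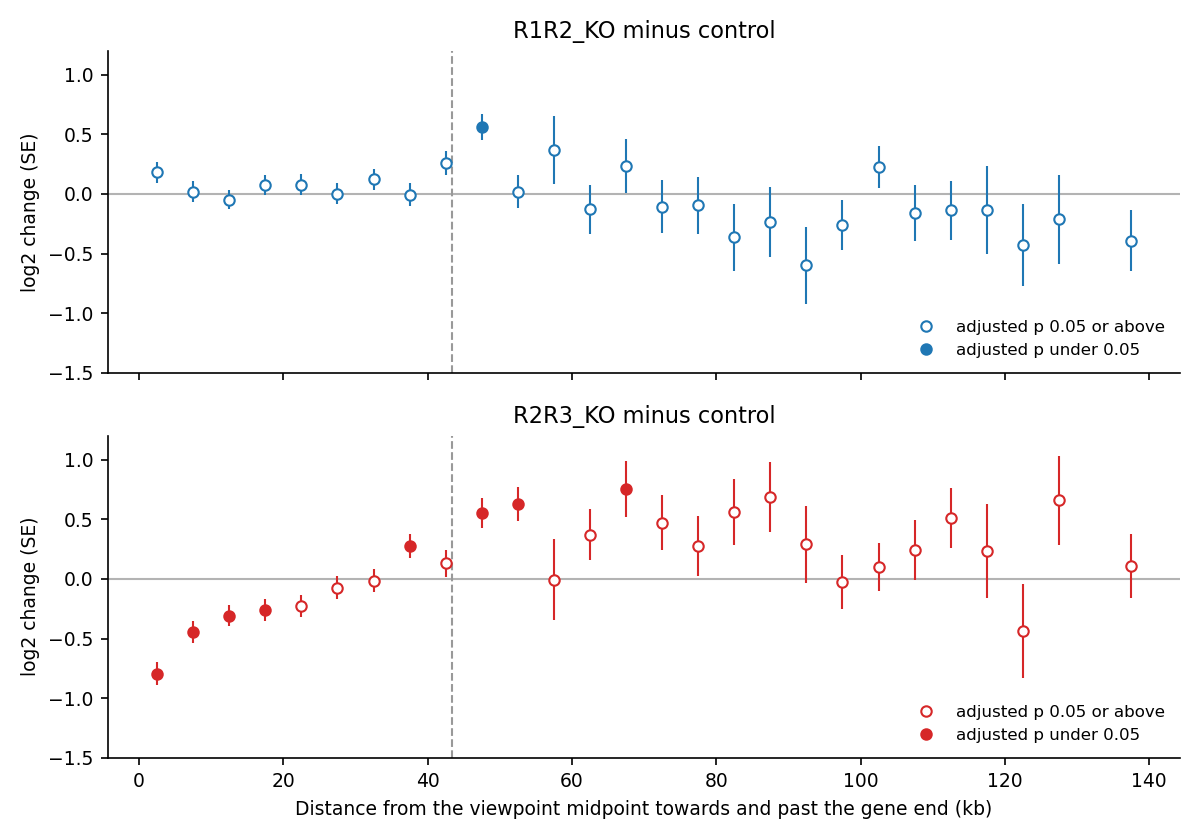
Log2 change with SE, edgeR quasi-likelihood test, in the 27 tested 5 kb bins of R1R2_KO (top) and R2R3_KO (bottom) against the same 3 controls, by distance from the viewpoint midpoint; filled points have an adjusted p under 0.05 and the dashed line is the approximate gene end. R2R3_KO runs from -0.79 beside the promoter to 0.75 at 65 to 70 kb, with 3 bins past the gene end below 0 (lowest -0.43, at 120 to 125 kb), and R1R2_KO has 1 filled point, at 45 to 50 kb.

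Single fragments resolve the change beside the promoter. Of 337 members, 95 had 90 or more reads over the 9 libraries, 87 of them in the gene body. R2R3_KO against control called 10, 9 lower and 1 higher, where 20.4% of all 225 tested fragments were called (20% lower, 0.444% higher). The median change over the 95 was -0.12 and over all 225 it was -0.27, so on this scale the median of the members lay above that of the table; with reads within 500 kb the table's median was 0.00 and the members' 0.14. DESeq2 called 5 (4 lower), and reads beyond 500 kb as the scale gave 32, all lower.

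The largest falls lay within 17 kb of the viewpoint midpoint. Fragment chr14:69895371-69895514 had 334, 502 and 485 reads per 100000 in control and 208, 153 and 235 in R2R3_KO (log2 change -1.14, SE 0.22, adjusted p = 1.07e-05). Fragment chr14:69894158-69894415 had 331, 328 and 429 against 180, 153 and 177 (-1.08, SE 0.23, adjusted p = 7.21e-05). Fragment chr14:69900630-69901406, the member nearest the viewpoint, had 1931, 2085 and 1890 against 941, 979 and 916 (-1.06, SE 0.15, adjusted p = 2.33e-09). The groups did not overlap at any of the 3. Fragment chr14:69886541-69886867 had 276, 179 and 158 against 111, 88 and 126 (-0.96, SE 0.29, adjusted p = 0.00754).

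The fifth, chr14:69898388-69899249, had 865, 671 and 659 in control and 491, 314 and 328 in R2R3_KO (-0.95, SE 0.18, adjusted p = 1.07e-05). In R1R2_KO the same fragment had 848, 1006 and 1411 and was higher than control (0.55, SE 0.15, adjusted p = 0.0145), so the groups moved apart and R2R3_KO was -1.51 below R1R2_KO (SE 0.18, adjusted p = 6.07e-15). The R1R2_KO libraries overlap control there. The other R1R2_KO call was chr14:69895888-69896448, with 579, 680 and 593 in control and 499, 371 and 384 in R1R2_KO (-0.54, SE 0.17, adjusted p = 0.0381). Both calls together are 2 of 95 members, where 4% of all tested fragments were called (0.444% higher, 3.56% lower). They are not stable: DESeq2 called 0 (6 members had an unadjusted p under 0.05), and leaving out control library 2, control library 3 or R1R2_KO library 3 also gave 0.

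The 1 higher member in R2R3_KO was chr14:69869151-69869719, towards the gene end, with 93, 53 and 72 in control and 152, 183 and 142.9 in R2R3_KO (1.10, SE 0.32, adjusted p = 0.00696). R1R2_KO had 86, 100 and 108. The direction against control of this fragment and of the 5 lowest was the same under all 4 scales.

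R2R3_KO against R1R2_KO called 14 members, all lower on this scale, where 12.9% of all tested fragments were called (11.6% lower, 1.33% higher). With reads within 500 kb, and likewise with TMM factors, it called 10 lower and 3 higher, and by DESeq2 10 lower and 1 higher. Besides chr14:69898388-69899249, the lowest were chr14:69894158-69894415 (-1.43, SE 0.22, adjusted p = 1.46e-08), chr14:69886541-69886867 (-1.34, SE 0.28, adjusted p = 3.07e-05), chr14:69898053-69898387 (-1.22, SE 0.22, adjusted p = 1.31e-06) and chr14:69900630-69901406 (-1.18, SE 0.15, adjusted p = 3.19e-12). At chr14:69886541-69886867 R1R2_KO had 230, 271 and 323 reads per 100000, all above the 3 R2R3_KO libraries. At chr14:69898053-69898387 it had 429, 406 and 473, against 138, 263 and 160 in R2R3_KO and 362, 357 and 332 in control.

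The single knockouts, with 1 library each and no control in their table, were alike over the gene. R2_KO had the highest gene body level, 1.14 times the mean of the other 4, and the rest lay between 0.946 and 1.01 of it. On the downstream side Rm_KO was highest at 1.12 times the mean of the other 4 and R3_KO lowest at 0.888. Ranges of counting error do not cover the spread between embryos or cultures, so these differences have no test. Neither R2_KO nor R3_KO alone had the low gene body level of the paired deletion: 23190 and 21018 reads per 100000 against 15381 to 15687, across tables that were made apart.

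At a few gene body fragments the R3_KO library was, like ES, below the other 4 single knockouts. This was noticed in the counts, and the rule that follows was chosen after its values were seen, so it is a description. Among 91 gene body fragments with 200 or more reads over the 6 libraries, R3_KO lay more than 1.5-fold below the lowest of the other 4 at 7 and above the highest at 1. ES was also below those 4 at all 7, and it was so at 59 of the 91 (64.8%). R1_KO and Rm_KO were below at 1 fragment each, with ES also below, R2_KO and R4_KO at 0, and R2_KO was above at 1. On the promoter side up to about 57 kb, R3_KO was below at 12 of 133 fragments, with ES also below at 11. On the downstream side it was below at 1 of 37, where ES was not, and above at 1, where ES was too. What sets R3_KO apart at these fragments was not tested.

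The clearest case was chr14:69871457-69871617, 31.7 kb from the viewpoint midpoint, with 22.4 reads per 100000 in R3_KO (Wilson 95% interval 14.9 to 33.6) and 32.7 in ES (24.9 to 42.9), against 107 to 131 in the other 4. The next fragment, chr14:69871618-69871777, had 38.9 in R3_KO and 43.4 in ES against 64.0 to 114. At chr14:69881530-69882149 R3_KO had 35.0 (25.3 to 48.5) and ES 35.2 (27.1 to 45.7), against 78.2 to 113. At chr14:69894627-69894840 they had 117 and 124 against 187 to 214. The exception above was chr14:69861554-69861650, with 115 in R3_KO, 51.1 to 71.2 in the other 4 and 40.9 in ES.

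These fragments were not low in all other erythroid libraries. At chr14:69871457-69871617 the 9 replicated libraries had 48.4 to 118, all above R3_KO and ES. Over the 7 fragments R3_KO was below all 9 at 4, and ES at 5. The summed gene body level of R3_KO, 1.01 times the mean of the other single knockouts, was not low, so the ES comparison over whole regions does not rest on this library: with R3_KO as the only erythroid library, ES was 0.760 of it over the gene body and 2.19 times it downstream.

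**Figure D5:**
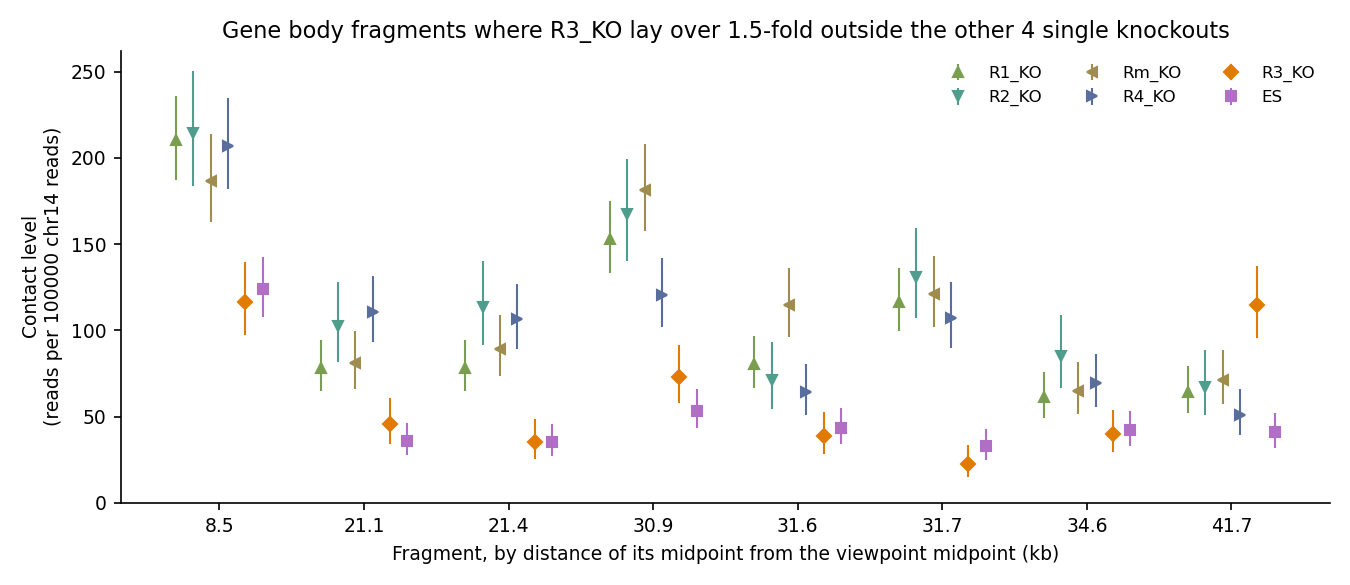
Contact level with Wilson 95% intervals in the 5 single knockout libraries and ES at the 8 gene body fragments where R3_KO lay more than 1.5-fold outside the other 4 single knockouts, by distance from the viewpoint midpoint. R3_KO and ES are both below the others at 7 fragments, and R3_KO is above them at 1, where ES is not.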

How the data were processed

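The authors deposited raw read counts per DpnII fragment in mm9, not scaled to depth, in 1 table for the 9 replicated libraries and 1 for the single knockouts and ES. Trim Galore and Bowtie were used, per the submitters' processing notes; the sources used here give no versions. The table of the replicated libraries holds 7 further columns of values that match no sample here and were not used. The members, regions and tests were chosen with earlier results of these data known.

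Counts were summed over regions and 5 kb bins outward from the viewpoint midpoint. Library size was chr14 reads more than 2 kb from it. All 9 replicated libraries entered 1 edgeR 4.0.16 quasi-likelihood fit (R 4.3.3; group as the only term) per feature type, over all chr14 features with 90 or more reads, with Benjamini-Hochberg adjustment at 0.05. Alternatives were other scales, exclusion zones, gene ends, filters and bin widths, TMM, DESeq2 1.42.0, limma 3.58.1 (voom), a replicate block and leaving out each library. Exact permutation tests used scipy 1.17.1 in Python 3.11.15. Named fragments are up to 5 lowest and 5 highest member changes past 0.05 in each contrast. Named bins are the 3 highest control bins of each region, the 3 lowest and 3 highest called changes, and the 3 highest and lowest ES ratios.

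The fit was tested on counts simulated for R1R2_KO against control. Of 225 fragments 112 were changed, and 35.6% of the changes of 0.5 (log2) and 94.0% of those of 1 were found. Of 95 bins 47 were changed, and 65.2% and 87.5% were found. The real contrast called 4% of fragments and 1.05% of bins, so these rates need not hold for it. Pairs of replicates had a chi-square of 0.995 to 2.16 per degree of freedom. The lowest was R2R3_KO libraries 1 and 3, which at this viewpoint differed by no more than sampling noise. At the α-globin viewpoint the range was 1.50 to 3.36, and the same pair was again the lowest, at 1.50. They are labelled as separate biological replicates and were kept as 2 libraries. Every replicate pair differed more at the α-globin viewpoint, so these values cannot show whether the 2 are independent. Counting them as 1 was added as an alternative after seeing the data. No sequence is printed, since the promoter table used here has no entry for the gene.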

Additional observations from a re-analysis of the deposited data

How the results depend on the processing

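Counting R2R3_KO libraries 1 and 3 as 1 (added after seeing the data) changed no call or direction of a region or ratio. The R2R3_KO gene body change against control and against R1R2_KO kept its direction and its side of the threshold under every alternative (-0.10 to -0.79 against control). With reads beyond 500 kb as the scale, R1R2_KO minus control turned to -0.073 in the gene body and -0.088 downstream, R2R3_KO minus control downstream to -0.037, and R2R3_KO minus R1R2_KO downstream came to 0.050 (adjusted p = 0.63). With reads within 500 kb, R1R2_KO minus control in the gene body passed at 0.15. With the gene end 5 kb lower, R1R2_KO minus control downstream was -0.020. Without 1 library it ran from -0.0061 to 0.084, and in the gene body from 0.047 to 0.117. The R1R2_KO minus control gene body to downstream ratio turned to -0.031 with a 5 kb exclusion zone and -0.0067 with 2 kb from the gap edges, and ran from -0.036 to 0.072 without 1 library. The R2R3_KO minus R1R2_KO gene side ratio turned to 0.014 with the 5 kb zone.

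Member fragments called in R1R2_KO against control were 2, and 1 with reads within or beyond 500 kb, TMM or a minimum of 30 reads, and 0 with all reads as the scale, DESeq2 or no filter; without 1 library 0 to 3. For R2R3_KO against control the 10 became 32 with reads beyond 500 kb, 6 with TMM, 5 with DESeq2 and 4 without a filter; against R1R2_KO the 14 became 30 and 8 with the first and last of these. Member bins called in R1R2_KO against control were 1, but 2 with reads within 500 kb and 0 with reads beyond it or DESeq2; without 1 library 1 to 2. For R2R3_KO against control the 8 became 5 with 30 reads and 3 without a filter, and 5 to 8 without 1 library; against R1R2_KO the 9 became 4, 2 and 5 to 12. The causes were not tested.

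The ES ratio over the gene body was 0.823 with reads within 500 kb, 0.671 beyond it, 1.01 with all reads and 0.816 against all 14 erythroid libraries; downstream it was 2.13, 1.76 and 2.65 under the 3 scales and 2.19 against R3_KO alone. Without 1 single knockout it ran from 0.756 to 0.786 and from 1.95 to 2.04.

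Replicate numbers did not pair the libraries: correlations of same-numbered deviations ran from -0.21 to 0.28 over 75 bins. With the number as a replicate block, R2R3_KO against control gave -0.36 in the gene body and 0.38 downstream, and called 10 member fragments and 8 member bins. The block changed no call count of members.

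Most downstream fragments (234 of 242) had too few reads for a test of their own, so past the gene end only 5 kb bins and larger sums carry changes.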
